A study of Mus musculus with 8 samples.

Results

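The genes described here are a panel of p53 targets and BCL2 family genes: the p53 targets Cdkn1a, Mdm2 and Ccng1, the death-promoting Bax, Bbc3, Bak1 and Bid, and the survival-promoting Bcl2, Bcl2l1 and Mcl1. They were chosen by name, and a gene counted as measured where a probe set (a group of probes summarised to 1 value) carried its symbol and no other. Of the 10 genes, 7 were measured, each by 1 probe set, among 16645 genes measured by 18154 such probe sets. The one probe set listing Cdkn1a also lists a second gene and was not read. No probe set used here carries the symbol Bax or Bbc3, so these 3 genes were not analysed here.

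RNA came from the most distal part of the colon of 5-week-old males of the inbred BALB/c strain and was hybridised to 8 Affymetrix MoGene 1.0 ST arrays. In the AA group (4 arrays) appendicitis had been induced and the appendix was taken out 1 week later. In the SS group (4 arrays) the mice had a pair of sham operations 1 week apart. Each of 2 batches named by the labels held 2 AA and 2 SS arrays (replicates 1 and 2 in batch 1, replicates 3 and 4 in batch 2). The labels describe individual colon samples without identifying mice, and p-values here rest on the spread among these samples, which may in part be technical. A deposited table is named for 3 days after the appendicectomy, and no harvest day stands in the labels of the arrays. The study's title places the comparison in the context of protection from colitis after appendicitis and removal of the appendix.

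The transcription factor p53 is stabilised by DNA damage and other stress, and its targets stop the cell cycle, repair DNA or start cell death. The BCL2 family decides whether the outer mitochondrial membrane stays intact: Bax and Bak1 form pores in it, the BH3-only proteins Bbc3 and Bid trigger them, and Bcl2, Bcl2l1 and Mcl1 hold them back. In the intestine, p53 and this family are best known for the death of crypt cells after irradiation. Much of the pathway is regulated on proteins, which arrays of RNA do not measure.

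The 13 colonocyte and epithelial markers were all measured, with list means of 12.24 to 12.43 in AA arrays and 12.10 to 12.36 in SS arrays on the log2 scale. The median AA minus SS difference of this list was 0.24 in batch 1 and -0.03 in batch 2. On the first principal component (31.9% of the variance), AA replicate 3 scored 24.97 and SS replicate 1 scored 24.73, while the remaining 6 arrays lay between -17.15 and -0.05. Leaving out both of these arrays was a choice made after seeing the data. It was run for the panel and for the p53 and cell death lists below with their named genes. The cell type and interferon lists were not refitted without these arrays. Where the refit moved a value by over 1.5 times or took it across an unadjusted p of 0.05, that value is given as well. AA replicate 3 was also the highest array for the mesothelium markers (list mean 8.64, against 7.21 to 7.58 in the other AA arrays and 6.12 to 7.57 in SS arrays), the macrophage markers (8.88) and the neutrophil markers (7.47). Other cell type lists differed in level as well. All 10 fibroblast and matrix markers had higher AA means, with list means of 9.89 to 10.14 in AA arrays and 9.27 to 9.79 in SS arrays. The AA means were also higher for all 10 smooth muscle, 9 macrophage and 6 mesothelium markers measured, where 51% of all tested probe sets were higher. The 9 cycling cell and 7 neutrophil markers measured all had higher AA means as well, and the 7 adipocyte markers all had lower ones. The cycling cell median was 0.43 in batch 1 and -0.02 in batch 2. In these 3 lists, 0 markers were at an unadjusted p under 0.05 in limma. Unadjusted p-values were under 0.05 for 8 of the fibroblast, 5 of the smooth muscle, 3 of the macrophage and 4 of the mesothelium markers, where 5.38% of all tested probe sets were so and higher in AA, and 0 markers passed an adjusted p of 0.05 in limma. The part of these cell types in the gene levels below was not tested.

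Promoter sequence shows where this panel differs in its letters. RefSeq windows (build GRCm38.p6, 250 bases before to 50 after each annotated start) were found for all 10 genes and searched for the p53 decamer consensus, the element that a pair of p53 monomers contacts, whose consensus reads the same on both strands. A match was found in 4 of the 15 windows of these genes, 1 each for Cdkn1a, Mdm2, Ccng1 and Bax, and in 8.36% of 32851 windows of all genes. Cdkn1a, which encodes the cell cycle inhibitor p21, had GGACTAGCTT and GAACATGTCT in one of its windows, separated by no more than 13 bases, an arrangement present in 0.0731% of all windows. Bax had AGGCAAGCTT. Of the 7 measured genes only Mdm2 and Ccng1 had a match, and they are shown because they are the measured p53 targets; Bak1 is shown as the gene with the largest AA minus SS difference among the 7, and its window holds no match. Capitals mark the decamer. The windows are chr10:117710709-117711008 (minus strand) for Mdm2, chr11:40755237-40755536 (minus strand) for Ccng1 and chr17:27028578-27028877 (minus strand) for Bak1, written 5′ to 3′ along the gene.
Mdm2: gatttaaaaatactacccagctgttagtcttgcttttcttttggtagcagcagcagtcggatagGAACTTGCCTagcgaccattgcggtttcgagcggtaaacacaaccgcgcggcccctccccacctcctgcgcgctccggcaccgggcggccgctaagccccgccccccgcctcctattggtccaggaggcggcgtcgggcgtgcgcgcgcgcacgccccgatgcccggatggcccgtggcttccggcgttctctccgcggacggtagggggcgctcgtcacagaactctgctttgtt
Ccng1: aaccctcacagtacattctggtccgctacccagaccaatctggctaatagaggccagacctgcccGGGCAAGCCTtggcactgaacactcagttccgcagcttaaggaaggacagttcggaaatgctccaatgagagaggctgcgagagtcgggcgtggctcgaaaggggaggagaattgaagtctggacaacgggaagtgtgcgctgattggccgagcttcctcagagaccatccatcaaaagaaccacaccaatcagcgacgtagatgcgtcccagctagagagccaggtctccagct
Bak1: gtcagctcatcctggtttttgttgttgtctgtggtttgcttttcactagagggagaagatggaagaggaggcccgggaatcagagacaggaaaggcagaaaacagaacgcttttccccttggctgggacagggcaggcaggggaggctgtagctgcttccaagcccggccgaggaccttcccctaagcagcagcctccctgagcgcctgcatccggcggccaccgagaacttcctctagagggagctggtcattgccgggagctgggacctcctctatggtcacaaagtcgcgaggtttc
The decamer began 186 bases before the annotated start in Mdm2 (GAACTTGCCT) and 185 bases before it in Ccng1 (GGGCAAGCCT). A match is a description of the letters and not a bound site, and the p53-responsive promoter for which Mdm2 is best known lies in its first intron, outside this window.

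For none of the 7 measured genes was a difference between AA and SS colon detected beyond the spread between arrays. Their differences, AA mean minus SS mean on the log2 scale, ran from -0.04 for Bcl2 to 0.27 for Bak1, with a median of 0.04 (0.06 without both AA replicate 3 and SS replicate 1), against 0.0033 over all 18154 probe sets. The AA mean was above the SS mean for 6 of the 7, where 51% of all tested probe sets had that direction. In limma, with batch and group as terms and Benjamini-Hochberg adjustment over all probe sets, 0 of the 7 passed an adjusted p of 0.05, and 0% of all tested probe sets did. At an unadjusted p under 0.05 there were again 0 of the 7, where 8.08% of all tested probe sets passed. For 0 of the 7 did all arrays of one group lie apart from all arrays of the other, where 6.39% of all tested probe sets did so (4.21% with AA above and 2.18% with AA below). With 4 arrays a group, the 95% intervals still allowed AA levels between 0.817 times the SS level (the lower bound for Mdm2) and 1.45 times (the upper bound for Bak1).

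**Figure D1:**
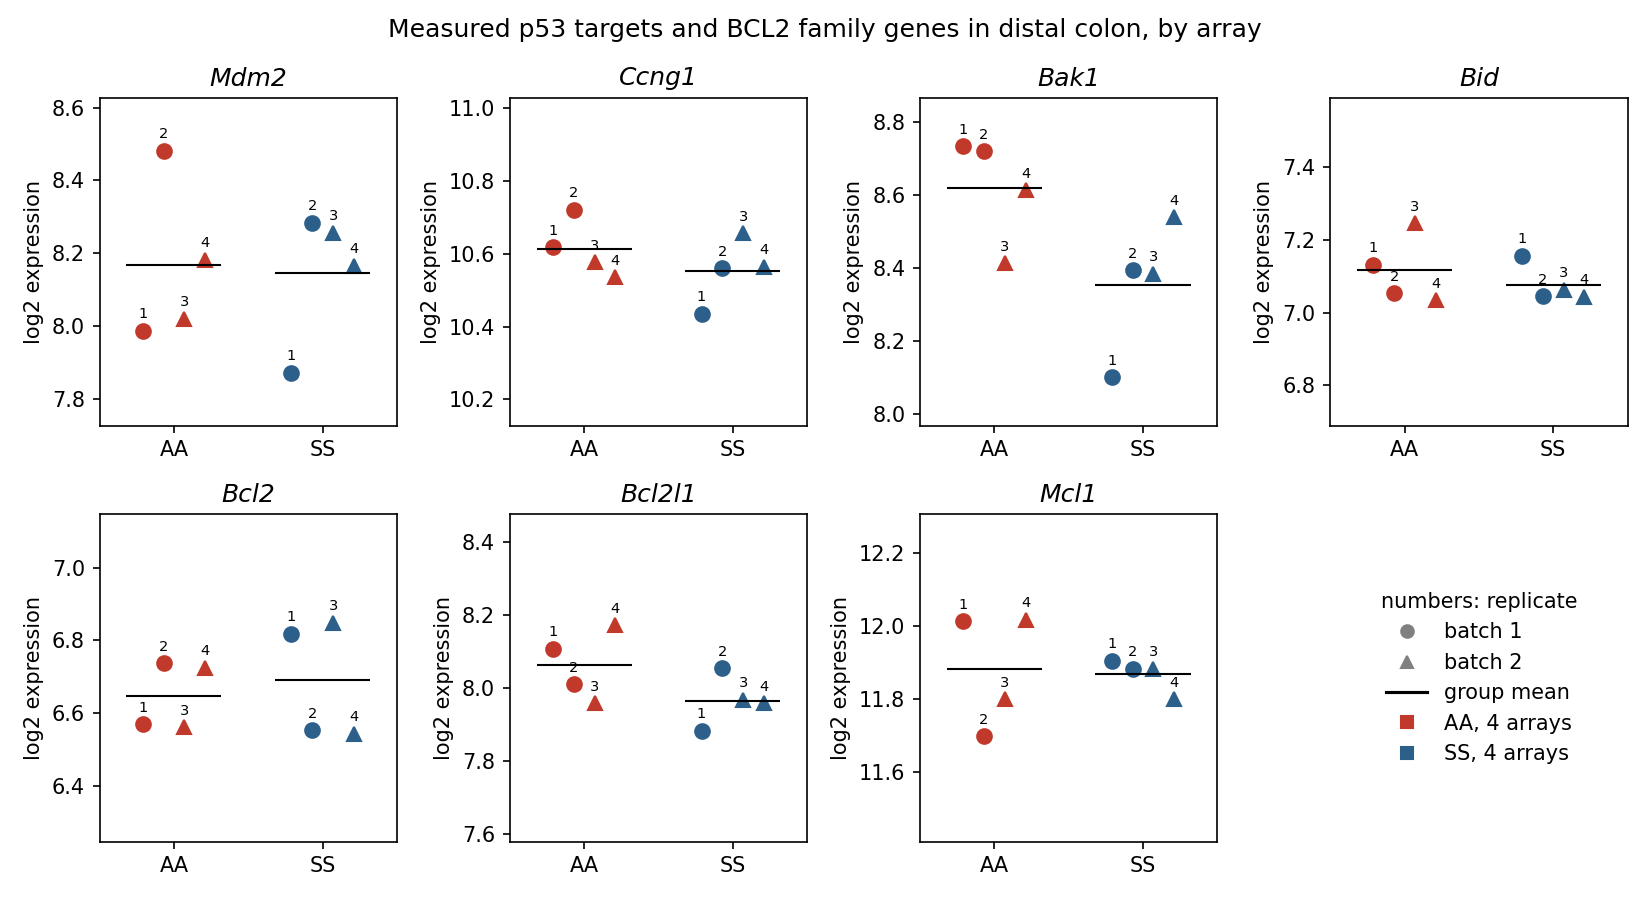
Log2 expression of each of the 7 measured genes on every array, AA left and SS right; numbers are replicates, circles batch 1, triangles batch 2, and lines group means, with the same height of scale in every panel. In all 7 genes the AA and SS arrays overlap, and SS replicate 1 is the lowest array for Mdm2, Ccng1, Bak1 and Bcl2l1.

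Among the p53 targets, Mdm2 encodes the ubiquitin ligase that marks p53 for destruction and is itself induced by p53. It stood at 7.99, 8.48, 8.02 and 8.18 in AA replicates 1 to 4, against 7.87, 8.28, 8.26 and 8.17 in SS replicates 1 to 4. AA replicate 2 was the highest array and SS replicate 1 the lowest, both in batch 1, and the other 6 arrays lay between them, the lowest pair of these from AA and the highest pair from SS. The difference was 0.02 ± 0.14 (SE), or 1.02-fold with a 95% interval of 0.817 to 1.26 (limma adjusted p = 0.986). Mdm2 varied between arrays more than 79.0% of tested probe sets, measured as the residual SD within groups. Its direction turned with single arrays: the difference was -0.10 without AA replicate 2, -0.09 without SS replicate 1 and -0.04 without both AA replicate 3 and SS replicate 1.

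Ccng1, encoding cyclin G1, a p53 target that feeds back on Mdm2 through protein phosphatase 2A, was steadier. Its values were 10.62, 10.72, 10.58 and 10.54 in AA, against 10.44, 10.56, 10.66 and 10.56 in SS. The AA arrays of batch 1 lay above both SS arrays of that batch, while in batch 2 AA replicate 3 lay between the SS arrays and AA replicate 4 below both. The difference was 0.06 ± 0.09 (SE), or 1.04-fold (95% interval 0.907 to 1.20, limma adjusted p = 0.906). The residual SD of Ccng1 exceeded that of 14.3% of tested probe sets. Its difference was 0.01 without SS replicate 1, the lowest array, and 0.02 without this array and AA replicate 3.

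Bak1, the pore-forming BCL2 family protein of the mitochondrial outer membrane, had the largest difference of the panel. It stood at 8.73, 8.72, 8.41 and 8.61 in AA, against 8.10, 8.39, 8.38 and 8.54 in SS. In AA, 3 arrays were above every SS array, and AA replicate 3 lay below SS replicate 4. Bak1 averaged 8.62 ± 0.15 in AA and 8.35 ± 0.18 in SS (SD, n = 4 each). This was a difference of 0.27 ± 0.12 (SE), or 1.20-fold with a 95% interval of 0.996 to 1.45. Limma gave an unadjusted p of 0.0538 and an adjusted p of 0.632, and 8.52% of all tested probe sets had an unadjusted p at least as small. Within batch 1 the Bak1 difference was 0.48 and within batch 2 it was 0.05; the test of the difference between batches gave an unadjusted p of 0.0641 and an adjusted p of 0.530 in limma. SS replicate 1 was the lowest Bak1 array, and without it the difference was 0.16. Without AA replicate 3 it was 0.35, and without both of these arrays 0.24 (unadjusted p = 0.0457, adjusted p = 0.477 in limma, where the adjusted p ran from 0.413 to 0.965 over 18 alternatives).

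Bid, the BH3-only protein that caspase-8 cleaves to carry a death receptor signal to the mitochondrion, had a residual SD above that of 10.6% of tested probe sets, the smallest share among the 7. Its values were 7.13, 7.05, 7.25 and 7.03 in AA, against 7.16, 7.05, 7.06 and 7.04 in SS. AA replicate 3 was highest, SS replicate 1 and AA replicate 1 came next, and the other 5 arrays lay between 7.03 and 7.06. The difference was 0.04 ± 0.09 (SE), or 1.03-fold (95% interval 0.898 to 1.18, limma adjusted p = 0.947), -0.01 without AA replicate 3, and 0.01 without this array and SS replicate 1.

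Of the survival genes, Bcl2, the founding member of the family, was the only one with a lower mean in AA. Its values were 6.57, 6.74, 6.56 and 6.73 in AA, against 6.82, 6.55, 6.85 and 6.54 in SS. SS arrays formed the extremes on both sides, with 1 high and 1 low array in each batch, and all AA arrays lay between them. The difference was -0.04 ± 0.11 (SE), or 0.971-fold (95% interval 0.822 to 1.15, limma adjusted p = 0.951). It was 0.01 without SS replicate 1, 0.02 without SS replicate 3 and 0.06 without both AA replicate 3 and SS replicate 1.

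Bcl2 is known for its part in lymphocyte survival, and the B cell markers had lower levels in AA. All 8 measured B cell markers of 9 listed had lower AA means, with list means of 5.33 to 5.85 in AA arrays and 6.09 to 6.40 in SS arrays, and 7 of the 8 were at an unadjusted p under 0.05, where 2.70% of all tested probe sets were so and lower in AA, while 0 of the 8 passed an adjusted p of 0.05 in limma. Their part in the Bcl2 result was not tested. In whole tissue, fewer cells of a type and less RNA per cell cannot be told apart.

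By root mean square distance between profiles centred on their mean over the 8 arrays, the genes most like Bcl2 were Myo1h (0.0295), Aadacl4 (0.0420) and Gm10457 (0.0434), against a median distance of 0.187 over all probe sets. They were picked for this distance, which fixes that their pattern over the arrays and their AA minus SS differences (-0.06, -0.01 and -0.07) resemble those of Bcl2. Bcl2 averaged 6.67 over the 8 arrays, below the median level of 7.13 over all tested probe sets. The 3 genes lay lower still, between 4.98 and 5.94 on every array.

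Bcl2l1, which encodes Bcl-xL, the survival protein of many epithelial cells, had 8.11, 8.01, 7.96 and 8.17 in AA, against 7.88, 8.05, 7.97 and 7.96 in SS. AA replicates 1 and 4 were the highest arrays and SS replicate 1 the lowest, with AA replicates 2 and 3 inside the SS range. The difference of 0.10 ± 0.09 (SE), or 1.07-fold (95% interval 0.932 to 1.23, limma adjusted p = 0.823), was 0.09 in batch 1 and 0.10 in batch 2. It stayed positive without each array in turn, from 0.05 to 0.14.

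Mcl1, a short-lived survival protein needed by many cell types, stood at 12.01, 11.70, 11.80 and 12.02 in AA, against 11.90, 11.88, 11.88 and 11.80 in SS. The AA arrays were spread on both sides of the SS arrays, with an SD of 0.16 in AA and 0.05 in SS (n = 4 each). The difference was 0.01 ± 0.10 (SE), or 1.01-fold (95% interval 0.864 to 1.18, limma adjusted p = 0.988). Leaving out AA replicate 1, AA replicate 4 or SS replicate 4 turned its sign, to -0.04, -0.04 and -0.01, and without both AA replicate 3 and SS replicate 1 it was 0.07.

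**Figure D2:**
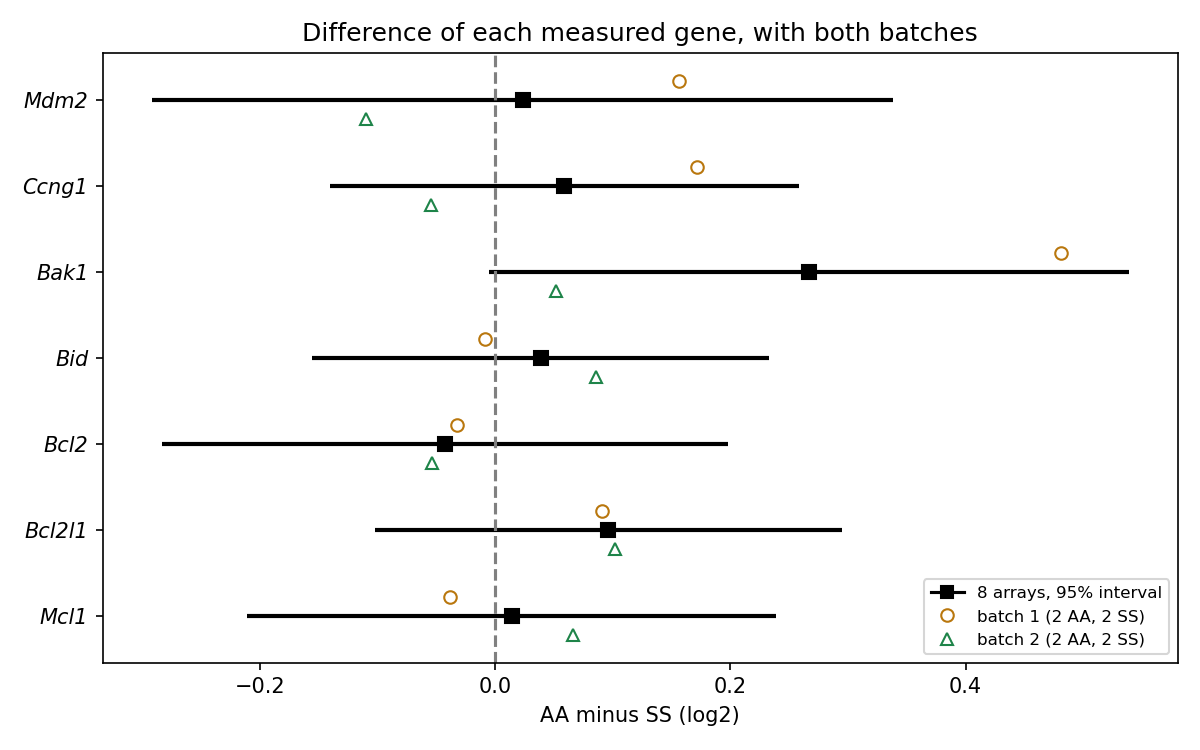
AA minus SS on the log2 scale for each measured gene; squares and bars are the difference over 8 arrays with its 95% interval, circles the difference within batch 1 and triangles within batch 2. Every interval includes 0, and Bak1 (0.48 and 0.05) shows the widest gap between the batches.

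The batches did not give the panel one direction. In batch 1, 4 of the 7 genes had a higher AA mean (median 0.09), and in batch 2 also 4 of 7 (median 0.05), where 54.7% and 49.9% of all tested probe sets did. Only Bak1 and Bcl2l1, 2 of the 7, were higher in AA in both batches, where 25.1% of all tested probe sets were, Bcl2 was lower in both, and Mdm2, Ccng1, Bid and Mcl1 turned. The difference between batches was called by limma's interaction term for 0 of the 7 and for 0% of all tested probe sets at an adjusted p under 0.05. At an unadjusted p under 0.05 it was 0 of the 7, against 9.46%.

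Single arrays weighed on several genes at once. SS replicate 1 was the lowest of the 8 arrays for 4 of the 7 genes, where it was lowest for 24.9% of all tested probe sets. The same array had the highest mean of the 7 measured adipocyte markers, at 8.68, against 6.59 to 7.34 in the other SS arrays and 6.10 to 7.43 in AA arrays. Its cycling cell markers had the lowest mean, 7.12, against 7.29 to 7.64 in AA arrays and 7.29 to 7.50 in the other SS arrays. Its colonocyte and epithelial markers also had the lowest mean, 12.10, against 12.24 to 12.43 in AA arrays and 12.26 to 12.36 in the other SS arrays. The part of fat, of cycling cells and of epithelium in these gene levels was not tested.

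**Figure D3:**
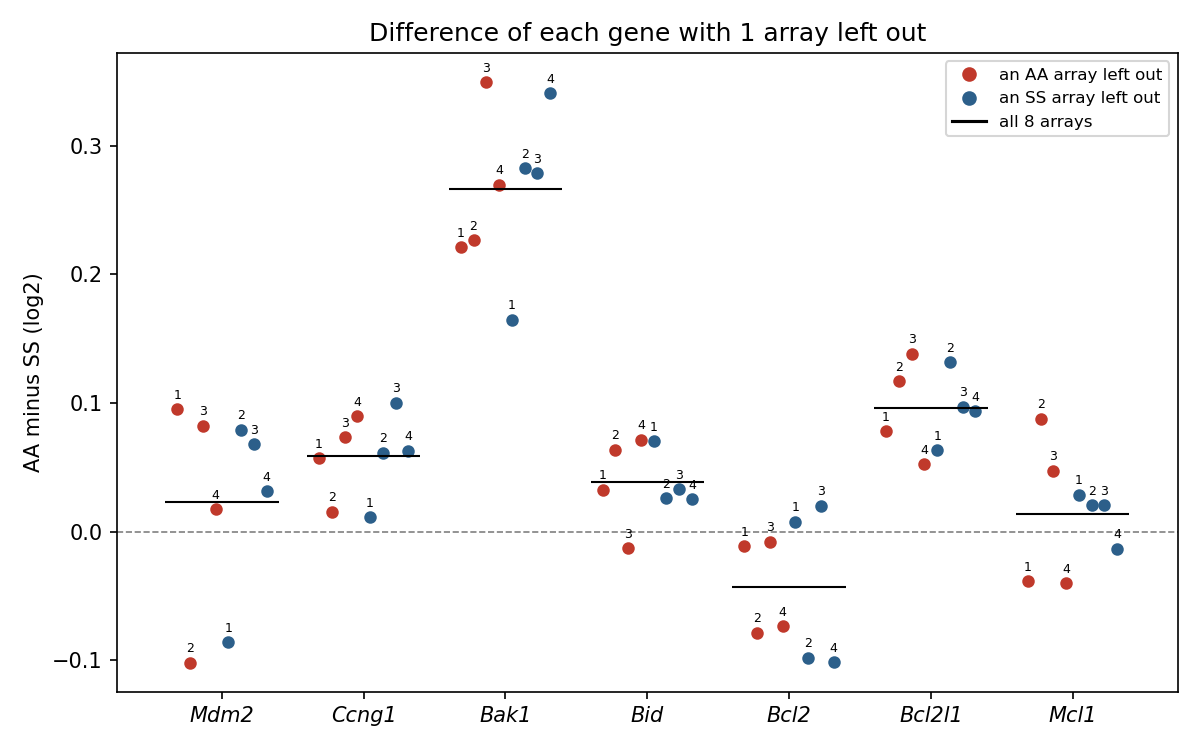
AA minus SS on the log2 scale for each gene after leaving out 1 array (red, an AA array; blue, an SS array; numbers are replicates), with the value over all 8 arrays as a line. Bak1 runs from 0.16 to 0.35 and Bcl2l1 from 0.05 to 0.14 without crossing 0, Ccng1 also stays above 0, and Mdm2, Bid, Bcl2 and Mcl1 cross it.

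Beyond the panel, other p53 targets were read from a list of 26 genes, 22 of them measured. Of these, 16 had a higher and 6 a lower AA mean, where 51% of all tested probe sets were higher. Their median was 0.12, against 0.0033 over all tested probe sets. At an unadjusted p under 0.05 there were 2 higher and 0 lower, where 5.38% of all tested probe sets were higher and 2.70% lower, and 0 passed an adjusted p of 0.05. Batch 1 alone gave this list a median of 0.18, and batch 2 alone 0.04. Over both batches the median was 0.04 without SS replicate 1, and -0.02 without that array and AA replicate 3. Fas and Tigar were the 2 at an unadjusted p under 0.05. They are named for their small p, as are Ep300, Atr, Pmaip1, Bnip3, Casp8 and Htra2 below. The differences and separation of these genes are therefore no added evidence. Fas, a death receptor, had 7.78, 8.06, 7.93 and 7.63 in AA, against 7.33, 7.46, 7.73 and 7.33 in SS. AA replicate 4 lay below SS replicate 3, and the other AA arrays lay above every SS array. The Fas difference was 0.39 ± 0.13 (SE), a 1.31-fold ratio with a 95% interval of 1.07 to 1.60 (limma adjusted p = 0.503). Without both AA replicate 3 and SS replicate 1 it was 0.28, with an unadjusted p of 0.118 in limma. Tigar, a phosphatase that lowers glycolytic flux, had 7.68, 7.83, 7.68 and 7.73 in AA, against 7.57, 7.43, 7.51 and 7.60 in SS, so that the lowest AA array exceeded the highest SS array. Its difference was 0.20 ± 0.09 (SE), or 1.15-fold (limma adjusted p = 0.603). The unadjusted p of Tigar was 0.0426 and stayed under 0.05 in 4 of 18 alternatives, becoming 0.0928 with a replicate block and 0.133 without AA replicate 2 in limma.

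Of the p53 family and its regulators, 11 of 14 listed genes were measured. A lower AA mean was found for 9 and a higher one for 2, where 51% of all tested probe sets were higher, and the list's median was -0.14. At an unadjusted p under 0.05 there were 0 of the 11, against 8.08% of all tested probe sets. Batch 1 alone gave 0.01, with 6 of the 11 higher in AA, and batch 2 alone -0.23, with 3 of the 11 higher. Over all tested probe sets, 54.7% were higher in batch 1 and 49.9% in batch 2. With 1 array left out the list's median ran from -0.24 (without SS replicate 1) to -0.07 (without AA replicate 4). Trp53 itself was not analysed here. Ep300, an acetyltransferase and coactivator of p53, had 9.004, 8.934, 8.916 and 8.808 in AA, against 8.919, 9.274, 9.106 and 9.3004 in SS. Atr, the kinase that senses stalled replication, had 6.67, 6.93, 6.70 and 6.28 in AA, against 6.72, 6.84, 7.09 and 7.09 in SS. The groups overlapped in both genes, whose differences were -0.23 ± 0.11 (SE) and -0.29 ± 0.15 (SE), with limma adjusted p-values of 0.638 and 0.679. In batch 1 the Atr difference was 0.02, in batch 2 it was -0.60, and without AA replicate 4 it was -0.145. Without both AA replicate 3 and SS replicate 1 the differences were -0.35 for Ep300 and -0.42 for Atr, with unadjusted p-values of 0.00999 and 0.0482 and adjusted p-values of 0.341 and 0.482 in limma. Over all alternatives the adjusted p ran from 0.227 to 0.965 for Ep300 and from 0.272 to 0.978 for Atr.

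Other BCL2 family genes showed no common direction: 7 of 12 measured genes (16 listed) had a higher AA mean and 5 a lower one, with a median of 0.03. Of all tested probe sets, 51% had a higher AA mean. An unadjusted p under 0.05 was found for 1 of the 12, near the 8.08% of all tested probe sets. This was Pmaip1, which encodes Noxa, a BH3-only protein that binds Mcl1 and is also a p53 target. Pmaip1 had 8.61, 8.04, 8.11 and 8.34 in AA, against 7.90, 7.91, 8.01 and 7.99 in SS. The groups did not overlap, and AA replicate 1 was the highest array. The difference was 0.33 ± 0.13 (SE), or 1.25-fold with a 95% interval of 1.02 to 1.54 (limma adjusted p = 0.579), and 0.19 without AA replicate 1. Its unadjusted p was under 0.05 in 11 of 18 alternatives. Bnip3, a mitophagy receptor induced by hypoxia, had 9.023, 8.109, 8.749 and 9.0997 in AA, against 9.452, 9.114, 8.996 and 8.854 in SS. AA replicate 2 alone was far below the others, and the difference of -0.36 ± 0.22 (SE; limma adjusted p = 0.724) was -0.72 in batch 1 and -0.0008 in batch 2. Without AA replicate 2 it was -0.10, without both AA replicate 3 and SS replicate 1 it was -0.19, and a second Bnip3 probe set gave -0.29.

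Downstream of the mitochondrion, 17 of 19 listed genes of the apoptosome, caspases and inhibitors of apoptosis were measured. Of these, 11 had a higher and 6 a lower AA mean (median 0.04), where 51% of all tested probe sets were higher. The list's median was 0.20 over batch 1 (14 of 17 higher in AA) and -0.05 over batch 2 (7 of 17 higher). Over all tested probe sets, 54.7% were higher in batch 1 and 49.9% in batch 2. With 1 array left out the list's median ran from -0.02 without SS replicate 1 to 0.12 without AA replicate 4. An unadjusted p under 0.05 was found for 1 of the 17, below the 8.08% of all tested probe sets. Casp8, the initiator caspase of death receptors and the protease that cleaves Bid, was that gene. It stood at 10.47, 10.38, 10.36 and 9.88 in AA, against 9.66, 9.67, 9.88 and 10.06 in SS. Only AA replicate 4 lay within the SS range. The Casp8 difference was 0.46 ± 0.15 (SE), or 1.37-fold with a 95% interval of 1.08 to 1.74 (limma adjusted p = 0.502). Within batch 1 the Casp8 difference was 0.76 and within batch 2 it was 0.15, with an unadjusted p of 0.0316 and an adjusted p of 0.524 for the difference between batches in limma. Without both AA replicate 3 and SS replicate 1 the Casp8 difference was 0.33, with an unadjusted p of 0.114 in limma. Htra2, a mitochondrial protease released in apoptosis, had 7.61, 7.59, 7.66 and 7.41 in AA, against 7.23, 7.44, 7.37 and 7.43 in SS, a difference of 0.20 ± 0.09 (SE; limma adjusted p = 0.644). For Htra2, AA replicate 4 was within the SS range and the other AA arrays were above it, and without both AA replicate 3 and SS replicate 1 its difference was 0.09.

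Fas and Casp8 are also known to respond to interferon, whose list stood higher in AA: the 8 measured of 12 interferon-induced genes all had higher AA means, with list means of 8.94 to 9.95 in AA arrays and 7.90 to 8.88 in SS arrays. All 8 were at an unadjusted p under 0.05, where 5.38% of all tested probe sets were so and higher in AA. A higher AA mean was found for 51% of all tested probe sets, and 0 of the 8 passed an adjusted p of 0.05 in limma. The part of interferon-induced transcription in the Fas and Casp8 values was not tested.

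**Figure D4:**
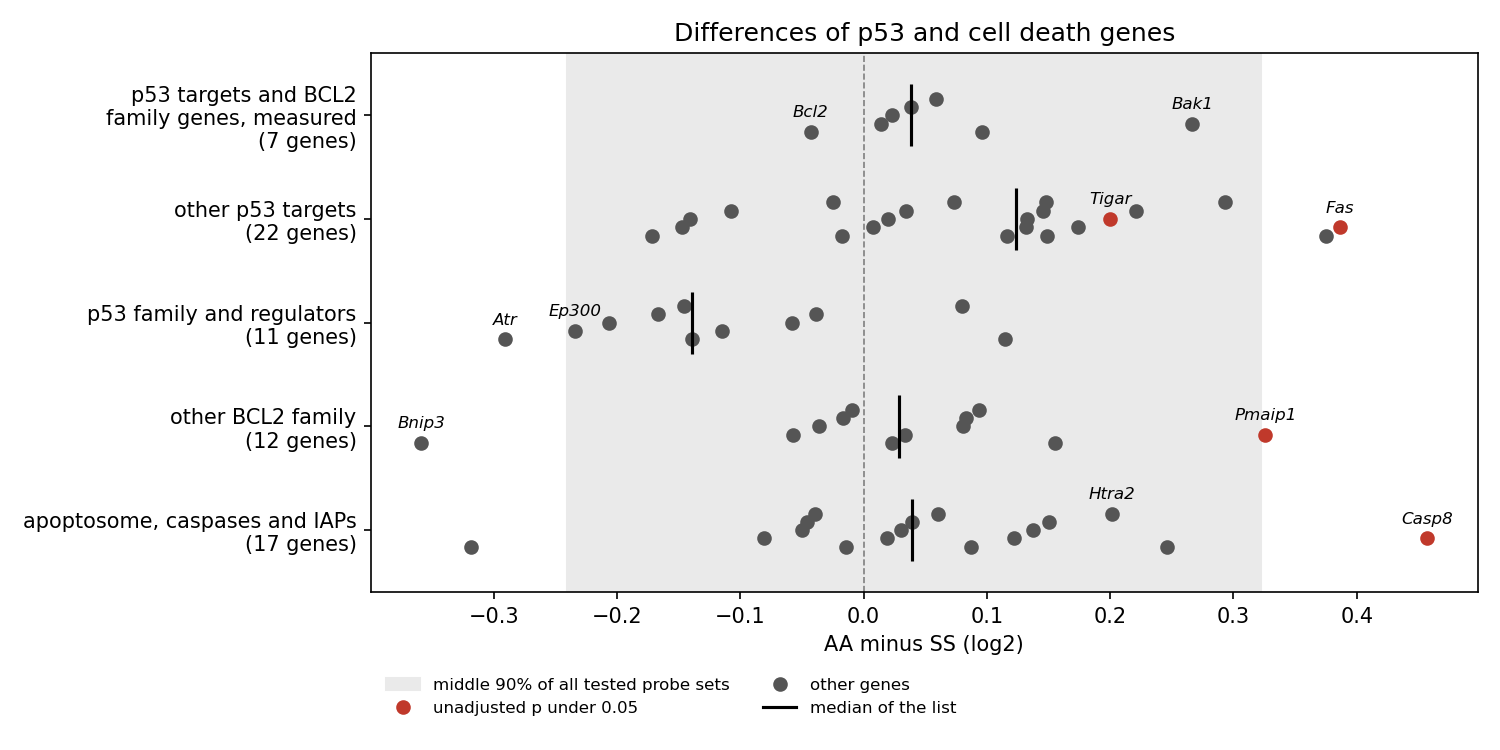
AA minus SS on the log2 scale for the 7 measured genes and for 4 lists around them; each point is a gene, red where the unadjusted p was under 0.05, black lines are list medians, and the grey band holds the middle 90% of all tested probe sets (-0.24 to 0.32). All 7 genes of the panel lie inside the band. Fas, Pmaip1 and Casp8 are among the genes beyond its upper edge, and Bnip3 and Atr are among those beyond its lower edge.

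The authors' deposited table of gene sets raised in AA, from gene set enrichment analysis, has 267 entries, some of them of this biology. A set can be entered more than once: the KEGG p53 set stands under both a signalling and an apoptosis heading. In the authors' deposited table the KEGG p53 signalling pathway, with 58 enriched genes, has a normalized enrichment score of 2.02 and a false discovery rate q-value of 0.001. An apoptosis set with 60 enriched genes has a score of 1.98 and a q-value of 0.001, and a caspase pathway set with 20 has 1.95 and 0.002 in the authors' deposited table. A set named P21_MIDDLE_DN, with 15 enriched genes, has 1.98 and 0.001 in the authors' deposited table. In which direction the genes of this set respond to p21 was not analysed here, so its score is not read as a sign of p21 activity. The authors' table names no genes, so which genes carried those scores, and whether the 7 measured here were among them, was not analysed here.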

How the data were processed

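RNA of 8 distal colon samples (4 AA, 4 SS) was measured on Affymetrix MoGene 1.0 ST arrays, with 100 ng labelled per the labels. The authors deposited 1 log2 value per probe set and array, made with RMA (background correction, normalization between arrays and summarising of probes); Affymetrix Power Tools and Partek 6.4 are named per the submitters' processing notes. The build, the annotation release, any batch correction and any filter are details not given in the sources used here. The deposited values had equal means in both batches (largest difference 0.00006). Per the file headers, the deposited gene set table holds enrichment scores with p-values and q-values. The number of arrays limits the precision.

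Of 23442 probe sets, the platform annotation gave 18154 exactly 1 symbol, 1559 several and 3729 none. Differences were fitted with limma 3.58.1 in R 4.3.3 (lmFit, eBayes) on batch plus group (5 residual degrees of freedom), adjusted by Benjamini-Hochberg over the 18154, with no filter. List genes were represented by their probe set with the highest mean, without test. The genes and lists were chosen with earlier results of these data known. Named are all measured genes of the panel, and of each other pathway list up to 4 genes at an unadjusted p under 0.05 or, where fewer than 2 passed, the 2 with the smallest p. Likeness was planned for Cdkn1a too, which was not measured. The fit was tested on simulated data. Alternatives were other terms, a replicate block, filters, normalizations, arrays or batches left out, and other thresholds. Deviations of same-numbered AA and SS arrays from their group means had correlations of -0.441 to -0.0929. These arrays share a batch, and the equal batch means push such correlations below 0. The correlations therefore cannot decide whether the numbers mark pairs. Numbers were not treated as pairs in the fit reported, and the replicate block is given as an alternative.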

Additional observations from a re-analysis of the deposited data

Results flagged for a closer look

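Bid in SS replicate 1 stood apart from the other arrays of its group, at 7.16 against 7.04 to 7.06 in the other 3 SS arrays, a gap of 0.8291 of the group's range. Of 30 groups of 4 values examined (15 genes, AA and SS each), this was the 1 that stood out, and chance flags about 1 in 20 groups.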

How the results depend on the processing

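No probe set passed an adjusted p of 0.05 in limma under any of the alternatives run, against 1467 at an unadjusted p under 0.05 in the fit reported; at an adjusted p under 0.2 there were 3. The 1467 became 909 with a filter at the median level, which tests fewer probe sets and left out Bid, Bcl2 and Atr. The count was 2366 in batch 2 alone and 910 to 2134 with 1 array left out. Of the 7 genes, 4 to 7 had a higher AA mean under these alternatives, and 1 of them, Bak1, came under an unadjusted p of 0.05 in batch 1 alone, without a batch term, with quantile normalization, without both AA replicate 3 and SS replicate 1 (chosen after seeing the data), and without AA replicate 3 or SS replicate 4 (0 to 1 genes with 1 array left out). For the 15 named genes the smallest adjusted p over 267 alternative values was 0.227. The replicate block left the 7 genes' median at 0.04, counted 1244 probe sets at an unadjusted p under 0.05, and changed no adjusted call, while the unadjusted p of Tigar became 0.0928. Unadjusted p-values under 0.05 were kept in 15 of 18 alternatives by Fas (not in batch 2 alone, without both arrays or without SS replicate 4), 16 by Casp8 (not in batch 2 alone or without both arrays), 11 by Pmaip1 and 4 by Tigar. Directions turned in 16 of the 267 values. Mdm2 became -0.1095 in batch 2 alone, -0.0391 without both arrays named above, -0.0082 with quantile normalization, and -0.1019 to 0.0954 with 1 array left out. Ccng1 became -0.0542 in batch 2 alone. Bid became -0.0087 in batch 1 alone and ran from -0.013 to 0.0715 with 1 array left out, Bcl2 became 0.0643 without both arrays and ran from -0.1016 to 0.0202, Mcl1 became -0.0382 in batch 1 alone and ran from -0.04 to 0.0878, and Atr became 0.0209 in batch 1 alone. List medians that moved by more than 1 SD between arrays were the other p53 targets (0.0361 in batch 2 alone, -0.0167 without both arrays, 0.0358 to 0.1237 with 1 array left out), the p53 regulators (0.0054 in batch 1 alone) and the caspase list (0.2026 in batch 1 alone). The caspase list's median also turned sign in batch 2 alone, to -0.0518, and without SS replicate 1, to -0.0159. That of the other BCL2 family genes turned to -0.0014 in batch 2 alone, -0.0241 without AA replicate 1 and -0.0134 without SS replicate 1. These sign changes were moves within 1 SD. The cause of these shifts was not tested. An array left out here still shaped the deposited batch centring. Because the deposited batch means are equal, the fit without a batch term counts a residual degree of freedom that the centring had used. Its p-values, that of Bak1 included, are therefore too small.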
